A study of Mus musculus with 2 samples.

Results

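The 237 regions described here are the autosomal bins of 1 Mb in which uH2A tags of Bmi1 wild-type cells were most abundant relative to those of Bmi1 null cells. They were chosen by this ratio: tags were counted once per position and strand, each library was divided by its own total in the same counting, and of the 2368 bins with 500 or more tags in each library the highest 10% were taken. They are called high-ratio bins below. Of 2410 autosomal bins with any tag, 42 fell under the tag minimum. The study compared uH2A between Bmi1 wild-type and Bmi1 null mouse embryonic fibroblasts (MEFs) by ChIP-Seq, to find where the mark depends on Bmi1. The cells were C57BL/6 MEFs from littermates, immortalized with TBX2 and otherwise untreated, and both immunoprecipitations used the E6C5 antibody against uH2A. Each genotype was 1 cell line and 1 library, so a difference between genotypes cannot be told apart from a difference between these lines or immunoprecipitations. The wild-type library held 6114925 tags, 4096561 of them at a distinct position and strand, and the null library held 8020248 and 5253063. The Bmi1 locus was not examined here, and a ChIP library carries no expression values, so neither the genotype nor the fibroblast identity was checked against markers.

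Monoubiquitylation of histone H2A at its carboxy-terminal tail (uH2A) is laid down by Polycomb repressive complex 1, in which Ring1b is the catalytic ubiquitin ligase and Bmi1 stimulates its activity. The mark is known from silent developmental genes, where it often lies near trimethylated lysine 27 of histone H3 (H3K27me3), the product of Polycomb repressive complex 2. Many of these genes have CpG-rich promoters, and active CpG-rich promoters carry H3K4me3 instead.

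The promoters below belong to genes whose promoter peaks were among those with the most wild-type tags in the high-ratio bins, and they are shown for their CpG content. The study's promoter peak table places peaks at 208 genes in these bins, of which 139 matched a symbol among the RefSeq promoter sequences of GRCm38.p6. Each sequence spans 250 bases before to 50 bases after the gene's start, and its coordinates belong to that build and not to mm8. Capitals mark the dinucleotide CG, which reads the same on both strands. Rhpn2 lies at chr7:35333987-35334286 on the plus strand. Acap3, an Arf GTPase-activating protein, lies at chr4:155891625-155891924 on the plus strand. Disc1, a scaffold protein of neurons, lies at chr8:125053945-125054244 on the plus strand. Tnfsf14, a ligand of the TNF family, lies at chr17:57194132-57194431 on the minus strand and is shown as the one with the fewest CG among the 6 promoters read.
Rhpn2: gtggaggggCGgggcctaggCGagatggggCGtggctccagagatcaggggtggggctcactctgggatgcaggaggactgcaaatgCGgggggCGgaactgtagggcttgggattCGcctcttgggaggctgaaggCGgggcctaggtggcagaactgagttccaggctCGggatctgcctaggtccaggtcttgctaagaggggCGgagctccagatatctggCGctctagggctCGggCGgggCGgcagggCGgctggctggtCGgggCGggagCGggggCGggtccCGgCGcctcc
Acap3: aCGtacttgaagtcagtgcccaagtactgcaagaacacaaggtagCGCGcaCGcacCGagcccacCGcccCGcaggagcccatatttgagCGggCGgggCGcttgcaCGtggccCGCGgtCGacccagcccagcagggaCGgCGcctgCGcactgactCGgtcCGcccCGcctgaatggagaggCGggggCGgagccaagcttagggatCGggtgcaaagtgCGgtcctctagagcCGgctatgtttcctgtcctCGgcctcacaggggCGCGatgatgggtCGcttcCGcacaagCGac
Disc1: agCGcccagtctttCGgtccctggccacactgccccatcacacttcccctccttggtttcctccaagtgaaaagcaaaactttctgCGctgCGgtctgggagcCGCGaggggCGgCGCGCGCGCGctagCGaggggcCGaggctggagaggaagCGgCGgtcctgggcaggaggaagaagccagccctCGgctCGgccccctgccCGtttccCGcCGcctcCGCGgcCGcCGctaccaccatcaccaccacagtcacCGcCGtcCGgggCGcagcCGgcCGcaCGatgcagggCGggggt
Tnfsf14: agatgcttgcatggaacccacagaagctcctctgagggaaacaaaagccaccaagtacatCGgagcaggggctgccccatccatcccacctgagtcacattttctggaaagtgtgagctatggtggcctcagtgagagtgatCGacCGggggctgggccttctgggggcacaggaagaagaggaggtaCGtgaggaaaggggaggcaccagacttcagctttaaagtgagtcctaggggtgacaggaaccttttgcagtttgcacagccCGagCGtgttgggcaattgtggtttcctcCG

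CG occurred 20 times in the Rhpn2 sequence, 31 times in Acap3, 33 times in Disc1 and 7 times in Tnfsf14. Of all 32851 RefSeq promoter sequences, 94.6% held at least 1 CG and the median was 7. As many CG as in Rhpn2 were held by 26.5% of them, as many as in Acap3 by 10.6%, as many as in Disc1 by 8.56% and as many as in Tnfsf14 by 52.1%. Over the 178 RefSeq promoters of the matched genes in high-ratio bins the median was 14 CG, and for promoter peak genes in the other bins it was 15. Promoters with peaks were thus rich in CG in either group of bins, and the high-ratio bins did not stand out in this respect.

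In the high-ratio bins the wild-type over null ratio ran from 1.20 to 1.67, with a median of 1.28 and an interquartile range of 1.24 to 1.35. By construction they make up 10% of the eligible bins, and nothing is read from that share. The median over all eligible bins was 0.948, and the lowest 10% of bins (237 low-ratio bins) had a median of 0.793. The ratio reached 1.3 in 102 high-ratio bins, 1.4 in 32 and 1.5 in 5. Pooled over the high-ratio bins, 683993 wild-type and 670630 null tags gave a ratio of 1.31 (95% Clopper-Pearson interval 1.30 to 1.31). Intervals of tag ratios given below cover counting error only: the libraries were amplified by PCR, carry no molecular identifiers, and their tags are therefore not independent molecules. Intervals of shares of bins, promoters or peaks are binomial and treat these as independent, although neighbours are not. Tags of the plus and the minus strand each gave 1.31. The ratio chose the bins, so these values describe them and carry no test.

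**Figure D1:**
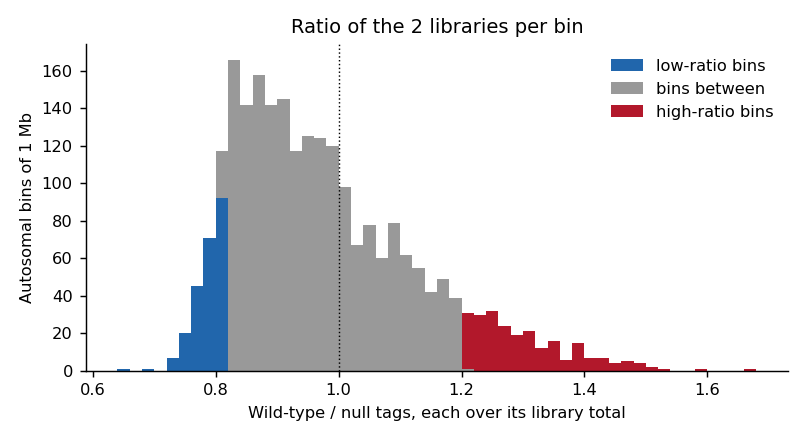
Number of autosomal 1 Mb bins (vertical axis) by wild-type over null ratio, each library over its total (horizontal axis), stacked by group; the dotted line marks a ratio of 1. The distribution has its median at 0.948 and a longer tail to the right, and the high-ratio bins begin inside that tail at 1.20 without a gap.

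The boundary of the group fell within counting error for many bins. The interval of 131 high-ratio bins lay wholly above the lowest ratio among them, while for 106 it included that value, as it did for 149 bins outside the group. Just inside was a bin of chromosome 2 (35000001 to 36000000 in mm8, the build of all bins and peaks), where 2673 wild-type tags stood against 2851 null tags. Next to it in rank were the bins on chromosome 5 from 135000001 to 136000000, at 2751 and 2935 tags, and on chromosome 3 from 27000001 to 28000000, at 1953 and 2084. The bin on chromosome 5 holds Cldn3 and Cldn4, which encode tight junction proteins, and the bin on chromosome 3 holds Ghsr, the ghrelin receptor gene. Just outside was the bin on chromosome 13 from 55000001 to 56000000, with 2802 and 2990 tags, which holds the fibroblast growth factor receptor gene Fgfr4. It was followed by chromosome 9 from 57000001 to 58000000 with 2667 and 2850 tags and chromosome 17 from 7000001 to 8000000 with 1451 and 1551. These 6 bins all had a ratio of 1.20.

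The 10 bins with the highest ratio lay on 4 chromosomes, 5 of them on chromosome 4, 2 each on chromosomes 8 and 12, and 1 on chromosome 15. The highest was on chromosome 4 from 153000001 to 154000000. There 3185 wild-type tags stood against 2449 null tags, a ratio of 1.67 (1.58 to 1.76). It holds 36 listed peaks and the H3K27me3-only promoter of Hes5, a repressor induced by Notch signalling. The bin from 139000001 to 140000000 on the same chromosome had 3046 and 2468 tags, a ratio of 1.58 (1.50 to 1.67), and holds Pax7, a transcription factor of muscle stem cells. Its neighbour from 140000001 to 141000000 had a ratio of 1.52 (1.44 to 1.60) and a promoter peak at Fblim1, which encodes a filamin-binding protein. The bin on chromosome 15 from 83000001 to 84000000 had the most tags of the 10 in both libraries, 4381 and 3701, with a ratio of 1.52 (1.45 to 1.59), and holds Scube1 and Mpped1. The bin on chromosome 8 from 124000001 to 125000000 holds the forkhead gene Foxl1 and the junctophilin gene Jph3 and had a ratio of 1.51 (1.44 to 1.58). On chromosome 12 the bin from 113000001 to 114000000, with the Notch ligand gene Jag2, reached 1.50 (1.42 to 1.58). The bin on chromosome 4 from 152000001 to 153000000, at 1.49 (1.41 to 1.58), has a promoter peak at Trp73, a relative of the p53 gene. The other 3 of the 10, from 147000001 to 148000000 on chromosome 4, from 123000001 to 124000000 on chromosome 8 and from 112000001 to 113000000 on chromosome 12, had ratios of 1.49, 1.49 and 1.48. The intervals of all bins after the first overlapped one another, and the interval of the first overlapped those of the bins ranked 2 to 5.

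The high-ratio bins were unevenly spread over the autosomes. Chromosome 4 held 39 of them, 26.4% of its 148 eligible bins. Its share of the group, 16.5%, depended on how many bins were taken, with 25.2% for the highest 5% and 10.8% for the highest 20%. On chromosome 15, 22 of 101 bins belonged to the group, on chromosome 7, 25 of 132, on chromosome 12, 19 of 112, and on chromosome 2, 25 of 176. Chromosomes 4, 2, 7 and 15 together held 46.8% of the high-ratio bins but 23.5% of the eligible bins. Chromosomes 13, 14, 16 and 19 had 1 each, chromosomes 1 and 6 had 3 each, and the 8 chromosomes with 5 or fewer held 20 of them among 939 eligible bins. Low-ratio bins were absent from chromosomes 3, 4, 7 and 12 and made up 30.5% of chromosome 16 and 25.9% of chromosome 19. Chromosomes 2, 5, 8 and 17 had more than 10% of their bins in each of these groups. On chromosome X, which the rule leaves out, none of 143 bins with 500 or more tags in each library reached the lowest ratio of the high-ratio bins, and the highest was 1.07.

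**Figure D2:**
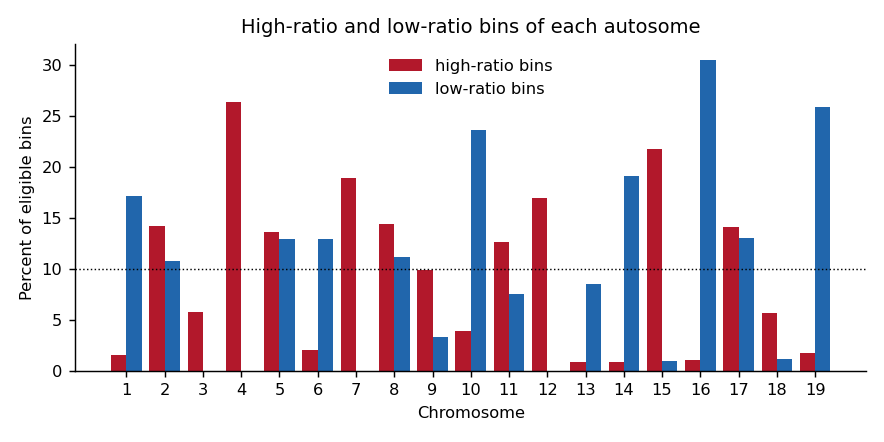
Percent of the eligible 1 Mb bins of each autosome (horizontal axis) that were high-ratio bins (red) or low-ratio bins (blue); the dotted line is at 10%. Chromosomes 4 and 15 had the highest shares of high-ratio bins, 26.4% and 21.8%, and chromosome 16 the highest share of low-ratio bins, 30.5%.

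Over the autosomes, many high-ratio bins lay toward the distal end, but not on every chromosome. Of the 237, 110 (46.4%) fell in the last 20% of the eligible span of their chromosome, counted along mm8, where 20.4% of all eligible bins lie. The first 20% held 28 (11.8%). Among the low-ratio bins 14.8% lay in the last 20% and 14.8% in the first 20%. On chromosome 4, 26 of the 39 lay in the last 20%, on chromosome 12, 12 of 19, and on chromosome 11, 12 of 15. Chromosomes 1, 6, 10, 13, 14, 16, 17 and 19 had none in the last 20%, among them chromosome 17 with 13 high-ratio bins, and chromosome 3 had 1 of 9. On chromosome 2, 13 lay in the last and 10 in the first 20%.

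Most high-ratio bins were next to another one. They formed 99 runs of adjacent bins, of which 55 were single bins and 12 were of 5 bins or more, and 182 of the 237 (76.8%, 70.9% to 82.0%) had a high-ratio neighbour. Of all eligible bins 14.9% had such a neighbour, and of the low-ratio bins 131 (55.3%) had a low-ratio neighbour. Runs of 3 or more bins held 59.1% of the high-ratio bins and 26.6% of the low-ratio bins. The longest run of low-ratio bins had 6 bins and the longest of high-ratio bins had 18. Over all eligible bins, the ratios of bins 1 Mb apart had a Pearson correlation of 0.751 (2329 pairs), which was 0.596 at 2 Mb, 0.373 at 5 Mb and 0.241 at 20 Mb. These pairs come from the same 2 libraries and share their depth, and adjacent bins can share base composition, so the correlation is a description. Bins outside the group but next to it had a median ratio of 1.10, those 3 Mb away 0.965, and those over 20 Mb away 0.889.

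The longest run covered chromosome 4 from 124000001 to 142000000. Its 18 bins held 47582 wild-type and 44029 null tags, a pooled ratio of 1.39 (1.37 to 1.40), with single bins between 1.26 and 1.58. The bin before it had a ratio of 1.20, just under the lowest ratio in the group, and the bin after it 1.13. It holds 322 listed peaks and 21 H3K27me3-only promoters, among them Pax7, Wnt4, a Wnt ligand gene, Grik3, a kainate receptor gene, Lin28, an RNA-binding repressor of let-7, and Grhl3, an epithelial transcription factor. The second, of 17 bins on chromosome 15 from 72000001 to 89000000, had a ratio of 1.37 (1.35 to 1.38) and began sharply, since the bin before it was at 0.871. It holds Wnt7b, the potassium channel gene Kcnk9 and the calcium channel gene Cacna1i among its 12 H3K27me3-only promoters. Runs of 9 bins lay on chromosome 12 from 105000001 to 114000000 (1.35, 1.32 to 1.37), with promoter peaks at the imprinted gene Dlk1 and at Traf3, and on chromosome 2 from 25000001 to 34000000 (1.33, 1.31 to 1.35), with the homeobox genes Lhx3 and Barhl1. A run of 8 bins on chromosome 4 from 147000001 to 155000000 reached the last eligible bin of that chromosome at 1.42 (1.39 to 1.44). It holds Hes2, Hes3 and Hes5, the chromatin remodeller gene Chd5 and Gabrd, which encodes a subunit of the GABA receptor.

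Both libraries had more tags in the high-ratio bins than in a median bin. Relative to its own median over eligible bins, 1523 tags, the wild-type library stood at a median of 1.85 (interquartile range 1.65 to 2.02), and all 237 bins were above that median. Relative to its median of 2099.5 tags, the null library stood at 1.32 (1.20 to 1.48), with 229 bins above. The low-ratio bins were at 0.750 in the wild-type and 0.887 in the null library. The bins were chosen on these same tags, so a wild-type level above the null level restates the choice, while the rule did not ask for a null level above its median. Some chromosomes had a high median level in both libraries. Relative to the median bin, the wild-type and null levels were 1.27 and 1.27 on chromosome 15, 1.29 and 1.18 on chromosome 11, and 1.12 and 1.21 on chromosome 19. Without chromosome 15 the 215 remaining high-ratio bins stood at 1.81 and 1.29. The part of tag density and of these chromosome levels in the ratio was not tested.

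**Figure D3:**
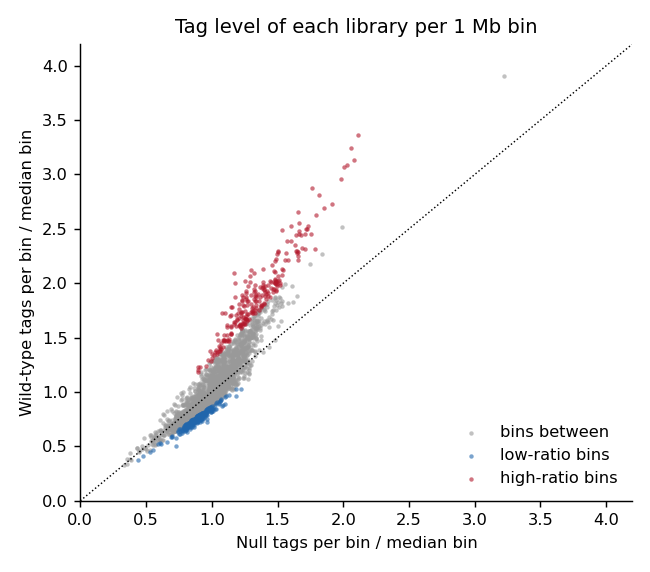
Wild-type tags (vertical axis) against null tags (horizontal axis) in each eligible 1 Mb bin, both relative to the median bin of the same library, 1 tag per position and strand; the dotted line marks equal relative levels. High-ratio bins (red) lie up and to the right, with medians of 1.85 and 1.32, and low-ratio bins (blue) lie below the line, with medians of 0.750 and 0.887.

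Repeats, meaning further tags that shared position and strand with an earlier one, made up 33.5% of the wild-type and 31.8% of the null tags in the high-ratio bins, and 33.1% and 35.0% in the other bins. With all tags counted, the pooled ratio of the high-ratio bins was 1.37. Tags without mismatch made up 46.0% of the wild-type and 48.9% of the null tags in the high-ratio bins against 40.5% and 45.4% elsewhere, so their share was higher in both libraries. With only such tags counted, the high-ratio bins chosen from them had a median ratio of 1.40, against 1.28 in the main counting. The reason for this shift was not tested. Base composition was not computed because no genome of the build was used here.

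The same tags were counted in smaller windows, which are parts of the chosen bins and so describe them without a test. In windows of 100 kb with 50 or more tags in each library, 2241 of 2356 windows (95.1%) in high-ratio bins were above 1, against 32.8% in the other bins. A ratio of 1.2 or more was reached by 1633 (69.3%), where the share over all windows was 13.8%. Since the contrast chose the bins, nothing is read from either difference. In 151 high-ratio bins all counted windows were above 1, in 86 at least 1 window was not, and the fewest above 1 in any bin was 6. The windows had a median of 1.30 and an interquartile range of 1.17 to 1.43.

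The study's list holds 16406 peaks, called with the wild-type library against the null library, of which 16183 have their midpoint in an eligible bin. The high-ratio bins held 4358 of these, 18.4 per bin with a range of 5 to 37, against 5.55 per bin in the other bins and 2.26 in the low-ratio bins. None of the high-ratio bins lacked a peak, and 97 of the others did. On all 19 autosomes the high-ratio bins had more peaks per bin than the rest of the chromosome. For chromosomes 13, 14, 16 and 19 this rests on 1 high-ratio bin each. The bin on chromosome 16 held 5 peaks against a mean of 4.68 in the rest. Because the peaks rest on the same contrast as the ratio, this density is a description. Peaks in the high-ratio bins had a median width of 924.5 bp, those elsewhere of 694 bp. The former rested on more distinct wild-type tags, a median of 8 against 6. Tags at 9 or more positions and strands were held by 49.1% of them and by 26.7% of the peaks elsewhere. Repeats made up 45.9% of the wild-type tags in peaks of the high-ratio bins and 56.6% elsewhere, and no listed peak was free of them.

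When tags in the listed peaks were left out, the pooled ratio of the high-ratio bins was 1.25 (1.24 to 1.25) and the median over bins was 1.22. Peaks held 5.91% of the wild-type and 1.45% of the null tags in these bins. Tags outside peaks were thus nearly all of the tags that chose the bins, so their raised ratio was largely set by the choice. With all tags counted and scaled by library totals, 90.4% of the peaks in high-ratio bins and 92.7% of the others reached 5-fold over the null library, taken as at least 1 tag. When each peak was scaled by the ratio of its own bin instead, 2759 (63.3%) in the high-ratio bins and 88.9% in the others reached 5-fold. This scaling divides by the ratio that chose the bins, which also contains the tags of the peaks, so a lower share in the high-ratio bins was set by the choice and nothing is read from it.

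**Figure D4:**
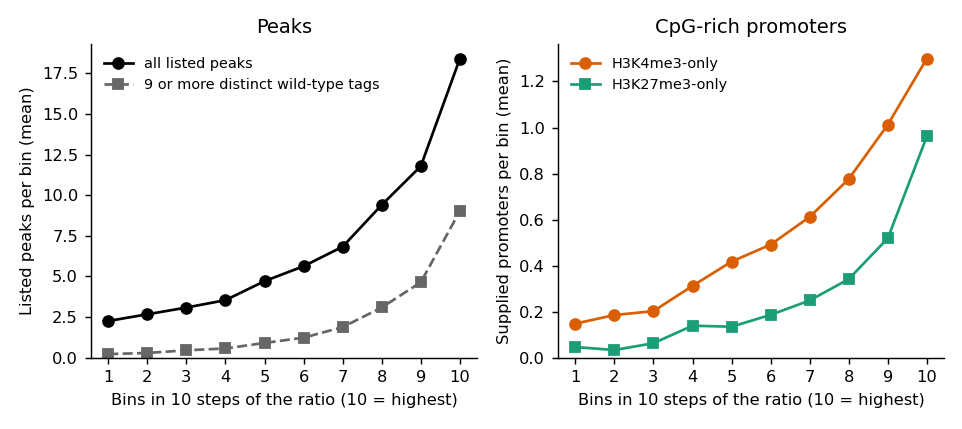
Mean number of listed peaks (left) and of supplied CpG-rich promoters (right) per 1 Mb bin, with the eligible bins ranked by ratio and divided into 10 steps of 236 or 237 bins (horizontal axis, 10 is the high-ratio bins). Peaks rose from 2.26 to 18.4 per bin, and H3K27me3-only promoters from 0.0466 to 0.962, with the largest step at the end.

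Promoters were taken from the study's gene table, of which the copy used here is partial. It holds 1999 genes, all with CpG-rich promoters, 636 with H3K27me3 only and 1363 with H3K4me3 only, and the latter are from the low-expressed end of their class. Of the 1927 whose 2 kb promoter has its midpoint in an eligible bin, 536 (27.8%) lay in the high-ratio bins. That is 2.26 per bin against 0.653 in the other bins and 0.194 in the low-ratio bins, and 82.7% of the high-ratio bins held at least 1. The high-ratio bins held 228 of 634 H3K27me3-only promoters (36.0%, 32.2% to 39.8%) and 308 of 1293 H3K4me3-only promoters (23.8%, 21.5% to 26.2%). The low-ratio bins held 11 (1.74%) and 35 (2.71%). Both promoter classes were thus denser in the high-ratio bins, and the share was higher for the H3K27me3-only class. The copy lacks genes with both marks or with neither. Since it is partial and the part of gene density was not tested, no overlap test was made.

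Promoter ratios were set beside those of the bins that hold them, as a description, since the ratios of the bins chose the groups. Pooled over the 228 H3K27me3-only promoters in high-ratio bins it was 1.49 (1.41 to 1.59), where the bins that hold them were at 1.32. The 308 H3K4me3-only promoters there were at 1.37 (1.30 to 1.44), with their bins at 1.31, so their interval reached the value of the bins. In the other bins the ratio was 1.41 (1.35 to 1.48) at H3K27me3-only promoters, with bins at 1.03, and 1.26 (1.23 to 1.30) at H3K4me3-only promoters, with bins at 1.01. The ratios of the bins were set by the choice of bins, so the gap between promoter and bin is not compared between the groups. Among promoters with 10 or more tags, 107 of 219 H3K27me3-only promoters in high-ratio bins reached 1.5-fold (48.9%, where 45.6% of all such promoters did), and 125 of 288 H3K4me3-only promoters did (43.4%, where 37.5% of all did). In the other bins the shares were 43.6% and 35.6%. The same contrast chose the bins, so nothing is read from these differences.

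Around the start site (TSS), the flanks lie within the chosen bins, so their level against the other bins was set largely by the choice and is given as a description. Beyond 3 kb from the TSS the ratio at H3K27me3-only genes in high-ratio bins was 1.44 (1.36 to 1.51), within counting error of the 1.49 found within 1 kb. At H3K27me3-only genes in the other bins it was 1.18 (1.13 to 1.23) beyond 3 kb. At H3K4me3-only genes it was 1.29 (1.23 to 1.35) in the high-ratio bins and 0.953 (0.925 to 0.982) in the others. At H3K4me3-only genes the highest 200 bp step held 1.98 scaled wild-type tags per gene in the high-ratio bins and 1.91 in the others, and the null library held 1.42 and 1.39. At H3K27me3-only genes the highest steps held 1.60 and 1.63 wild-type tags and 1.14 and 0.973 null tags.

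**Figure D5:**
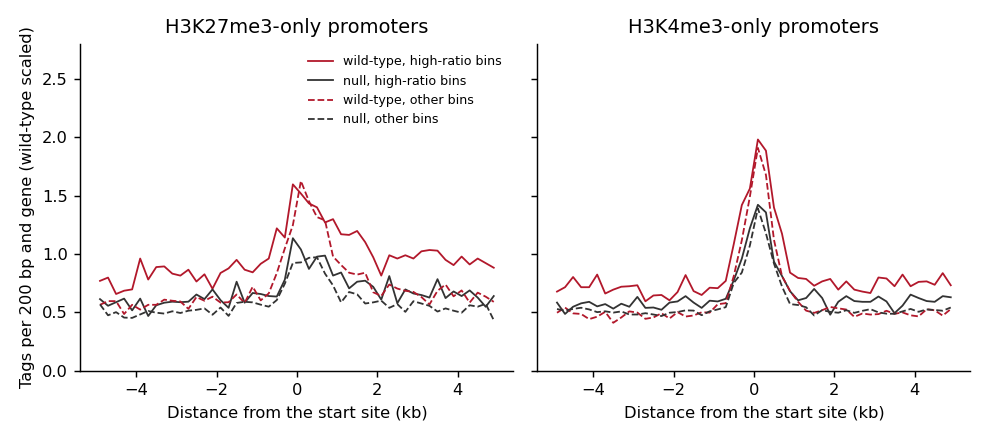
Tags per 200 bp step and gene (vertical axis, 1 tag per position and strand, wild-type scaled to the null total) by distance from the TSS (horizontal axis, kb), for H3K27me3-only (left) and H3K4me3-only (right) genes in high-ratio bins (solid) and other bins (dashed), wild-type in red and null in black. At H3K4me3-only genes the wild-type heights at the TSS, 1.98 and 1.91, lie close together, while the solid red flanks lie above the dashed ones.

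The 20 H3K27me3-only promoters with the most wild-type tags in high-ratio bins held 16 to 28 of them and 6 to 27 null tags, and 10 of the 20 lay on chromosome 15. They were ranked by unscaled tags, which favours chromosome 15, where the high-ratio bins stood at 2.50 times the median bin in the wild-type and 1.75 times in the null library. Celsr1, a cadherin of planar cell polarity, had 28 wild-type tags against 20 in the null library, giving a scaled ratio of 1.80 (0.976 to 3.36). Bai1, an adhesion receptor of the brain, had 20 and 6, the highest ratio of the 20 at 4.27 (1.66 to 13.0). C1ql4, a secreted protein related to complement, had 24 and 12 (2.56, 1.23 to 5.63). The Wnt ligand gene Wnt7b had 23 and 17 (1.73, 0.887 to 3.46), while Mafa, a transcription factor of insulin-producing cells, had 23 and 27, the lowest ratio at 1.09 (0.598 to 1.98). Dhh, which encodes Desert hedgehog, had 17 and 11, and Chrna4, a nicotinic receptor subunit, had 17 and 9. The tight junction gene Cldn3 had 17 and 8, the cardiac potassium channel gene Kcnq1 had 16 and 9, and the testicular hormone gene Insl3 had 16 and 6. The interval lay above 1 for 9 of the 20. Since they were picked for their wild-type tags, these ratios lean to the high side.

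Among the 10 H3K4me3-only promoters picked in the same way, 1600014C10Rik stood apart with 75 wild-type and 43 null tags, a ratio of 2.24 (1.52 to 3.33). Ing1, a tumour suppressor with a PHD finger, had the highest ratio, with 24 and 5 tags (6.16, 2.30 to 20.7). Atf4, a transcription factor of the stress response, had 23 and 11 tags (2.68, 1.26 to 6.09), and Sphk1, a sphingosine kinase, had 23 and 12 (2.46, 1.17 to 5.42). Anapc11, a subunit of the anaphase-promoting complex, had 20 and 9. The homeobox gene Six5, with 22 and 15 tags, and the RNA helicase gene Ddx17, with 22 and 20, were the ones whose interval included 1.

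The study's promoter peak table pairs 671 of the listed peaks with genes, and 213 of these lay in the high-ratio bins. They made up 4.89% (4.27% to 5.57%) of the peaks there, 3.78% (3.44% to 4.14%) of the peaks in the other bins and 2.06% (1.03% to 3.65%) in the low-ratio bins. A median promoter peak held 10 distinct wild-type tags both in the high-ratio and in the other bins. The highest was at AI428936, named Syne4 in the RefSeq gene table, a nuclear envelope protein, on mm8 chromosome 7 from 30020664 to 30024280. It held 31 distinct wild-type and 9 null tags, a ratio of 4.42 (2.05 to 10.5), in a bin with a ratio of 1.32. The peak at Ing1, on chromosome 8 from 11554452 to 11557738, held 30 and 8, and that at Cdx1, an intestinal homeobox gene, held 27 and 6. Rhpn2, whose CG-rich promoter is printed above, had the highest ratio of the 20 with the most tags, 25 and 4 tags or 8.01 (2.77 to 31.7). Acap3 held 21 and 7, Disc1 held 20 and 4, and Tnfsf14 held 18 and 4. The actin-binding gene Cttn held 20 and 4, the potassium channel gene Kcna3 20 and 8, Omp, the olfactory marker gene, 20 and 5, and the ribosomal protein gene Rps21 19 and 7. These peaks were called for more wild-type than null tags and then picked for their wild-type tags, so ratios above 1 were set by the choice. The 20 peaks held 18 to 31 wild-type and 4 to 9 null tags at distinct positions, in bins spread over 10 chromosomes.

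By gene family, 26 of 98 developmental transcription factor genes supplied lay in high-ratio bins (26.5%), where 27.8% of all supplied promoters did. The latter share pools 36.0% of the H3K27me3-only and 23.8% of the H3K4me3-only promoters, and the families were not divided by mark. The 26 genes include the muscle regulator Myod1, the heart factor Nkx2-5, the neural genes Neurod2, Neurog1 and Sox1, and Gata5. None of the 7 supplied Hox genes, the patterning genes best known as Polycomb targets, lay in a high-ratio bin. Several of them share a bin, so the 7 genes are fewer bins. Hoxa5 and Hoxa10 lay in a bin with a ratio of 1.05, and Hoxb1 and Hoxb3 in a bin at 1.11. Hoxc12 and Hoxc13 lay in a bin at 1.15, and the bin of Hoxd4 was at 1.01. These are levels of whole bins. Hoxa10, Hoxa5 and Hoxd4 have promoter peaks, with ratios of 4.17 (1.29 to 17.5), 3.85 (0.960 to 22.1) and 3.21 (0.925 to 14.0) in the peak. These peaks were called for more wild-type than null tags. In the 2 kb promoters the ratio was 2.56 (1.04 to 6.92) at Hoxc13, 1.06 (0.482 to 2.28) at Hoxc12, 1.54 (0.391 to 6.37) at Hoxb1, 1.92 (0.220 to 23.0) at Hoxb3 and 3.85 (0.688 to 39.0) at Hoxd4. Of the ion channel and neuronal receptor genes, 24 of 59 (40.7%) lay in high-ratio bins, among them Kcnc1, Scn8a, Grin2d and Chrnb2. Signalling ligands and receptors had 10 of 32 (31.3%), including Wnt3, Wnt4, Wnt7a, Fgf3 and Fgf4. Solute carrier genes had 17 of 54 (31.5%) and zinc finger genes 12 of 51 (23.5%). Of keratin and junction genes 3 of 6 and of ribosomal protein genes 6 of 13 lay there. These are counts over a partial table, and neighbouring genes of a family share a bin, so nothing particular to a family is read from them.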

How the data were processed

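uH2A was measured by ChIP-Seq in 1 Bmi1 wild-type and 1 Bmi1 null library of MEFs. According to the methods, the authors mapped 25 bp tags to mm8 and kept those with a single best place. The deposited tag files give the position, strand and mismatches (at most 2) of each tag, with no normalization. The peak list deposited by the authors gives for each peak a count of wild-type tags and a p-value of 1e-05 or less, from a caller that set the wild-type against the null library. Its fold column was not used. The deposited count equalled the wild-type tags counted again by BED start in all 16406 peaks.

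Tags were counted by BED start, 1 per position and strand, in bins of 1 Mb, windows of 100 kb, peaks and promoters of 2 kb. Ratios were scaled by library totals, with 95% Clopper-Pearson intervals, and a median high-ratio bin had an interval of 5.28% of its ratio to either side. With 1 library per genotype no test was made. The gene table served for promoter places and marks only. The bins, runs and genes named are the 10 highest bins, the 3 on each side of the threshold, the 5 longest runs, the 20 promoter peaks, 20 H3K27me3-only and 10 H3K4me3-only promoters with the most wild-type tags, and the supplied Hox genes. From these lists, from the genes within the bins and runs, and from the gene families, the examples described were chosen after their values were seen. Members and lists were chosen with earlier results of these data known. Counting was checked on simulated data. Python 3.11.15, numpy 2.4.6, pandas 2.3.3, scipy 1.17.1 and matplotlib 3.10.9 were used. The alternatives tried were other tag sets, tag placements, tag minimums, bins, shares of bins and peak rules.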

Additional observations from a re-analysis of the deposited data

Results flagged for a closer look

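Chromosome Y lies outside the bins compared here. With 1 tag per position and strand it held 2415 tags in the wild-type and 1758 in the null library. The ratio over library totals was 1.76 (1.66 to 1.87 by Clopper-Pearson at 95%). The ratio of the highest autosomal bin, 1.67, lies within this interval. Chromosome Y was singled out because the wild-type level exceeded the null level by more than counting error in data that no comparison used. With all tags the ratio was 2.12. The number of copies of chromosome Y in either cell line was not measured, and the cause of the difference was not tested. Mitochondrial tags, which no comparison used either, went the other way, with 136 wild-type and 352 null tags and a ratio of 0.495 (0.403 to 0.606).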

How the results depend on the processing

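Each of 8 results was computed again under the alternatives that apply to it, 17 settings in all, of which 1, leaving out chromosome 15, was chosen after seeing the data. Of 94 values compared with the first one, 80 stayed within a range set around it and 14 moved beyond it. For median ratios the range was the counting interval of the single bin nearest to the median. For the null level it was the counting interval of a median tag count. For shares it was the binomial interval, and for counts per bin 1.5 times. No range gives the uncertainty of a median over bins. Direction was compared only for the null level, the counts per bin and the share of promoter peaks, and none of these values changed direction. The median ratio of the high-ratio bins, 1.28, became 1.35 with all deposited tags, 1.35 relative to the median bin and 1.40 with tags without mismatch. Taking the highest 5% gave 1.35 and the highest 20% gave 1.20, which follows from how the bins are taken. The share of high-ratio bins on chromosome 4, 16.5%, became 25.2% with the highest 5% and 10.8% with the highest 20%. The share with a high-ratio neighbour, 76.8%, became 82.7% with the highest 20%. The median ratio outside peaks, 1.22, became 1.16 with the highest 20% and 1.33 with tags without mismatch. The null level in the high-ratio bins, 1.32 times its median bin, became 1.25 with all deposited tags and 1.25 with the highest 20%. Peaks per bin fell from 18.4 to 9.08 at a p-value limit of 1e-07 and to 9.02 with 9 or more distinct tags, since fewer peaks were counted. Apart from those that follow from how bins or peaks are taken, the cause of these shifts was not tested. The bins themselves were largely shared. All deposited tags returned 223 of the 237 among 238, tags outside listed peaks 225 among 237, and tags without mismatch 185 among 189 of 1890 eligible bins. No paired analysis was possible because each genotype has 1 library, and for the same reason no library could be left out. At this depth the interval included 1 for 11 of the 20 named H3K27me3-only promoters.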
